A study of Mus musculus with 6 samples.

Results

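The genes of axon guidance and of the ephrin family were followed in the distal colon of mice with chemically induced colitis. Members were chosen by symbol: ephrins and Eph receptors, semaphorins of classes 3 to 7, plexins, neuropilins, Slit and Robo genes, netrins and Unc5 receptors. The table listed 68 such genes among 27546, and 45 of them were among the 14657 genes with a mean FPKM (fragments per kilobase of gene and per unit of library depth) of at least 0.5, which were tested. The netrin receptor gene Dcc, the netrin gene Ntn3 and 2 further antisense transcripts matched by symbol were not analysed here. RNA sequencing was carried out on whole colon tissue of 3 Gm31629-/- mice and 3 WT littermates, all labelled C57BL/6 (C57BL/6J in the study's methods) and 8 weeks old. Gm31629 is a long noncoding RNA, and the Gm31629-/- mice carry a germline deletion of its locus on chromosome 1, so that every cell of the animal lacks it. All 6 mice drank 3% dextran sulfate sodium (DSS), which injures the colonic epithelium, for 7 days and were killed on day 8; no group without DSS was sequenced here, so each difference is one between genotypes under DSS. Gm31629 itself has no entry in the annotation used for gene names and was not analysed here, so the deletion was not checked in these libraries. In bulk tissue, fewer cells of a type and less RNA per cell cannot be told apart.

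Guidance genes were named for growing axons, which they attract or repel, but most also work outside the nervous system. Ephrins sit on the cell surface and bind Eph receptor tyrosine kinases on a neighbouring cell; A-type ephrins are held by a lipid anchor, and B-type ephrins span the membrane. In the intestine, EphB2 and EphB3 are made by crypt cells under Wnt signalling, ephrin-B1 and ephrin-B2 by cells nearer the surface, and the contact between them keeps crypt cells in place. Semaphorins signal through plexins, the secreted class 3 forms mostly together with neuropilins. Slit proteins are ligands of Robo receptors, and netrins bind Dcc and Unc5 receptors. Endothelium, mesenchymal cells, neurons, leukocytes and epithelium all use some of these genes.

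Colon tissue of the 2 genotypes differed in the markers of many cell types. The summed FPKM of 12 smooth muscle markers was 1180 to 1810 in Gm31629-/- mice and 21.8 to 38.4 in WT mice, and the structural genes Des, Cnn1 and Actg2 ranged from 0.403 to 2.0, from 0.138 to 1.85 and from 0.347 to 3.53 FPKM in WT mice, highest in WT mouse 2. The groups also did not overlap in the sums for fibroblasts (294 to 788 against 32.0 to 56.1), endothelium (81.4 to 174 against 4.62 to 11.6), enteric neurons and glia (57.7 to 204 against 2.85 to 5.43), macrophages (631 to 1450 against 101 to 111) or neutrophils (513 to 1030 against 70.4 to 128). T cell markers summed to 29.7 to 53.0 against 10.4 to 15.9, and B and plasma cell markers to 233 to 422 against 14.8 to 21.6. The 15 epithelial markers went the other way, from 13300 to 14500 in WT mice to 8240 to 9760 in Gm31629-/- mice. The most abundant, Krt8 and Krt19, carried much of that difference, at means of 2040 and 1040 FPKM in Gm31629-/- mice beside 4200 and 2070 FPKM in WT mice. Of these epithelial genes, 5 passed as lower and none as higher, 13 had a negative and 2 a positive log2 fold change, and Tspan8 was higher in every Gm31629-/- mouse than in any WT mouse without passing. The defining genes Epcam and Cdh1 had log2 fold changes of 0.01 and -0.04. The part these marker differences play in the values of the guidance genes was not tested. Libraries held 18006000 to 18795100 mapped fragments, as worked out from the FPKM steps. The Y-linked genes Ddx3y, Eif2s3y, Kdm5d and Uty were above 0 in Gm31629-/- mouse 1 only, and Xist was 0.006 FPKM in that library against 8.348 to 13.768 in the other 5. The study's methods state male mice, which the RNA of those 5 libraries does not show. All 3 WT libraries were among the 5, so sex-linked RNA was not balanced between genotypes. Calls and directions of the guidance genes that changed without that library are given with the genes.

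Of the 45 tested guidance genes, 10 were higher and 2 lower in Gm31629-/- colon in limma's fit, where a gene had to reach an adjusted p below 0.05 and a log2 fold change of more than 1 in size. Over all 14657 genes, 18.4% passed as higher and 4.64% as lower. The members' shares, 22.2% and 4.44%, lay near that background, so the counts say nothing particular to the family. The genes that rose were Ntn1, Slit3, Sema3f, Plxnd1, Robo4, Sema4c, Efna5, Ephb6, Sema3g and Robo1, and those that fell were Epha1 and Ephb2. The expression filter used the mean over all 6 libraries. Efna5, Robo1, Ntn1, Slit3, Sema3g, Ephb6 and Robo4 had WT means of 0.0406 to 0.366 FPKM. These genes lay below 0.5 FPKM in WT mice and were tested only because of their Gm31629-/- values. The same held for Sema3a, Robo2, Sema6c and Plxna3, at WT means of 0.0237, 0.237, 0.202 and 0.374 FPKM. The counts of higher members below include such genes: Sema3a, Robo2 and Sema6c by the adjusted p alone, and Plxna3 too by lack of overlap. The median log2 fold change of the 45 was 0.43, beside 0.15 over all tested genes, and 31 were positive and 14 negative. By the adjusted p alone, 16 were higher and 6 lower, where 28.9% and 14.6% of all tested genes were. The genotypes did not overlap in 20 members that were higher and 9 that were lower in Gm31629-/- mice, beside 36.3% and 21.5% of all tested genes. Their summed level did not separate the groups: the summed FPKM of all 68 was 695 to 721 in Gm31629-/- mice and 664 to 801 in WT mice. All 12 calls were kept in each of the 6 fits that left out 1 mouse. Without Gm31629-/- mouse 1, the library with Y-linked RNA, 12 members were higher and 3 lower: Nrp1 (1.03), Sema6b (1.13) and Sema3b (-1.04) moved past the fold limit. The count of lower genes rose to 5 without Gm31629-/- mouse 3, and to 4 without WT mouse 1 or WT mouse 2. Over all tested genes, the fits without 1 mouse gave 2285 to 2892 higher and 513 to 766 lower. Median ratio scaling of the libraries moved the all-gene median from 0.15 to -0.05, and left 10 members higher while 5 were lower. Over all 14657 tested genes, 2233 were then higher and 1217 lower. Scaling to the epithelial markers instead left 20 higher and 0 lower, and scaling to the fibroblast markers 1 higher (Ntn1) and 30 lower. Of all 14657 tested genes, 4910 were higher and 220 lower under epithelial scaling, and 218 and 11729 under fibroblast scaling. The all-gene median was 0.69 under epithelial scaling and -2.592 under fibroblast scaling, so the member counts moved with those of all tested genes. Log2 fold changes changed sign for 3 of the 45 under median ratio scaling, for 9 under epithelial scaling and for 23 under fibroblast scaling. The direction of many members thus depends on what the libraries are set against. All tested genes shift with the scaling, so a change of sign is not particular to a member or to the family.

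**Figure D1:**
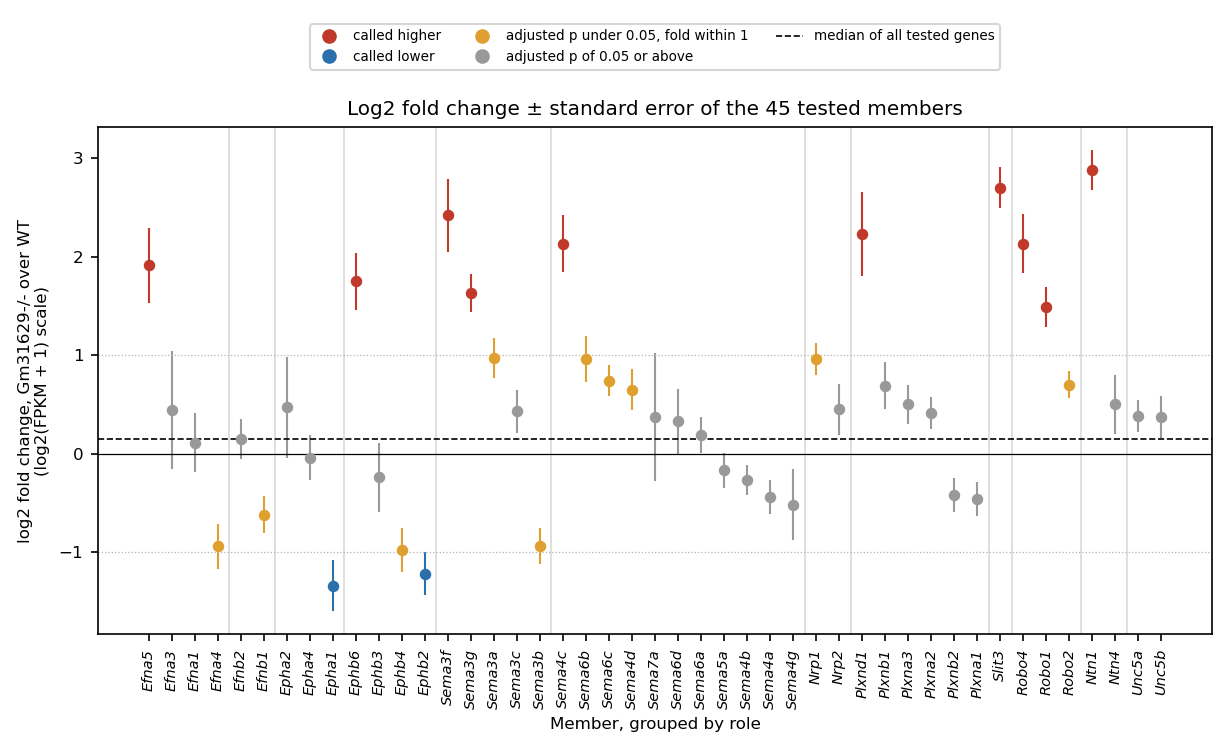
Log2 fold change (Gm31629-/- over WT, on log2(FPKM + 1)) of the 45 tested guidance and ephrin genes, 1 point per gene with its standard error, arranged by role. The dashed line is the median of all tested genes (0.15) and the dotted lines mark a log2 fold change of 1 in either direction. Slit3 and Ntn1 lie farthest to the higher side, and Epha1 and Ephb2 are the 2 called lower. When libraries are scaled to fibroblast markers, 23 of the 45 points change sign, Sema3f, Plxnd1 and Sema4c among the 10 called higher. The median of all tested genes is -2.592 under that scaling.

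The B-type Eph receptors and their ligands were taken first, since EphB2 and EphB3 place cells along the crypt. Both receptors belong to 1 subfamily, yet the 2 genes gave different values here, and the sequence before each start site is shown so that the 2 genes can be set side by side, with that of Epha1, the other gene that fell, and of Robo4, an endothelial gene that rose. The 4 stretches are from RefSeq (GRCm38.p6), are read 5′ to 3′ on the gene's own strand and end at or before the annotated start of transcription, with CG dinucleotides in capitals. They lie at chr4:136836013-136836262 (minus strand), chr16:21204545-21204754 (plus strand), chr6:42373269-42373518 (minus strand) and chr9:37401722-37401896 (plus strand), in the order printed.
Ephb2: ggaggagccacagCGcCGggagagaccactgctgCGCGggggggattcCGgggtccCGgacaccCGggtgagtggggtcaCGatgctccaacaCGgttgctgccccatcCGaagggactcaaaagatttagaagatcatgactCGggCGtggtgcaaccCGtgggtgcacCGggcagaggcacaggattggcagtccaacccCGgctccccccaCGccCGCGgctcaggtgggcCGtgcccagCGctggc
Ephb3: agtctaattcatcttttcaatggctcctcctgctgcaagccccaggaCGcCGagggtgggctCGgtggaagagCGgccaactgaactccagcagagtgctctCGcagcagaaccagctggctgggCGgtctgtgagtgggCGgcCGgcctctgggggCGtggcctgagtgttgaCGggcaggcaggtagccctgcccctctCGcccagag
Epha1: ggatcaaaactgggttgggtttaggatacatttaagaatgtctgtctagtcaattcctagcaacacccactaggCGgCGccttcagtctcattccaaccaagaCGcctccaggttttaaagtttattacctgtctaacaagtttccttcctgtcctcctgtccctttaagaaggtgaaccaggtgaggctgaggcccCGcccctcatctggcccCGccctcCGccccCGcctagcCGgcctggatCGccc
Robo4: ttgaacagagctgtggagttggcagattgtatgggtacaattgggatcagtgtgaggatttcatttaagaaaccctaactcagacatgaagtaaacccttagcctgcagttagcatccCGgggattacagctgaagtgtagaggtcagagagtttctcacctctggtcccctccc
The Ephb2 stretch of 250 bases held 20 CG dinucleotides, the Ephb3 stretch of 210 bases 11, the Epha1 stretch of 250 bases 9 and the Robo4 stretch of 175 bases 1. RefSeq promoters were found for 58 of the 68 members. The 250 bases before the start held a median of 15.5 CG dinucleotides over 74 member promoters, beside 6 over all 32851 promoters, and the median GC content was 64.4% beside 52.4%. The letters CTTTGAT, a core sequence that TCF/LEF factors bind, were searched on both strands: they occurred in 3.21% of all promoters and in 1.35% of the members' promoters, that of Nrp2 alone. A match or its absence in these windows is a description of the letters only.

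Ephb2 (chromosome 4, 136647539 to 136835988, minus strand, GRCm38) fell in Gm31629-/- colon. Its FPKM was 3.88, 6.55 and 3.90 in the 3 Gm31629-/- mice and 12.0, 10.4 and 14.4 in the 3 WT mice. Every Gm31629-/- mouse lay below every WT mouse, and the mean was 2.57-fold lower, with a log2 fold change of -1.22 ± 0.22 (SE, limma adjusted p = 0.0052). With libraries scaled to the epithelial markers the log2 fold change was -0.59 (adjusted p = 0.107). Ephb3 (chromosome 16, 21204755 to 21223305, plus strand), its partner in crypt cells, did not pass. It stood at 1.87, 4.95 and 3.57 FPKM in Gm31629-/- mice and at 4.58, 2.38 and 5.80 FPKM in WT mice, and the groups overlapped. The log2 fold change of Ephb3 was -0.24 ± 0.35 (adjusted p = 0.6), and it turned to 0.31 under scaling to epithelial markers and to 0.05 without Gm31629-/- mouse 1. WT mouse 2 had the lowest Ephb3 of its group and Gm31629-/- mouse 1 the lowest of all 6.

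Both receptors were then set against epithelial RNA in the same library, as the difference between the gene and the mean of the 15 epithelial markers on the log2(FPKM + 1) scale. For Ephb2 this difference was -6.32, -5.48 and -6.36 in Gm31629-/- mice and -5.57, -5.81 and -5.23 in WT mice. The groups overlapped through Gm31629-/- mouse 2, and the means differed by -0.51 (exact two-sided permutation test, p = 0.3). Set against 17 crypt genes and Wnt targets instead, Ephb2 was at -0.05, 0.44 and 0.14 in Gm31629-/- mice and at 1.01, 1.31 and 1.07 in WT mice. These groups did not overlap and differed by -0.96, at an exact permutation p of 0.1, the smallest that 3 against 3 mice can give. For Ephb3 the difference to the epithelial markers was -7.08, -5.82 and -6.46 in Gm31629-/- mice and -6.80, -7.56 and -6.41 in WT mice. The Ephb3 groups overlapped and their means differed by 0.47 (exact permutation p = 0.5), and by 0.03 against the crypt list (p = 1.0). The lower Ephb2 of Gm31629-/- colon thus passed limma's test on the FPKM scale, while relative to epithelial markers the groups overlapped. The permutation test cannot give a p below 0.1 here, so its p is not set against that of limma. Of the crypt genes and Wnt targets, 14 were tested. Of these, 5 (35.7%) were lower and 1 (7.14%) was higher, beside 4.64% and 18.4% of all tested genes. Their median log2 fold change was -0.33, with 9 negative and 5 positive. The 5 lower genes ran from -1.96 (Cdca7) to -1.12 (Sox9), a range that holds the -1.22 of Ephb2, while Nkd1 was at 2.58. The separation of Ephb2 from the list mean therefore does not show that it fell beyond the crypt genes that fell.

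**Figure D2:**
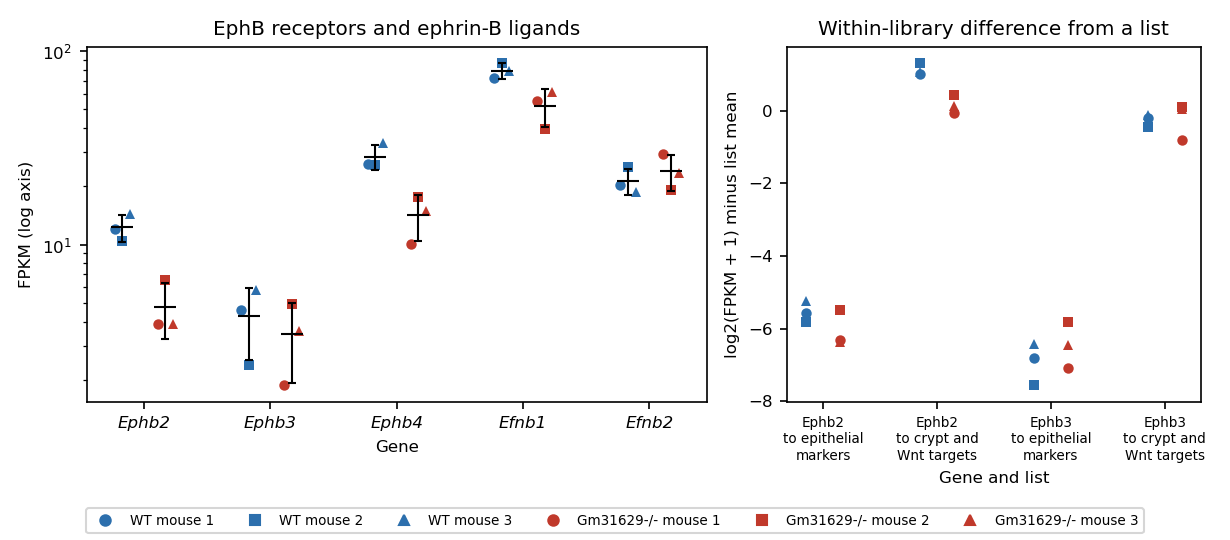
Left: FPKM (log axis) of Ephb2, Ephb3, Ephb4, Efnb1 and Efnb2 in each mouse (circle, square and triangle for mouse 1, 2 and 3; blue WT, red Gm31629-/-), with group mean and SD. Right: Ephb2 and Ephb3 set against epithelial markers and crypt genes of the same library, as a difference on the log2(FPKM + 1) scale. Ephb2 separates the groups against the crypt list, which holds Nkd1 (log2 fold change 2.58) beside genes that fell, but not against the epithelial list. Ephb3 overlaps in both.

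The other B-type receptors moved in different directions. Ephb4, the ephrin-B2 receptor of veins, which is also made by epithelium, was 10.1, 17.5 and 14.9 FPKM in Gm31629-/- mice and 26.2, 25.7 and 33.3 FPKM in WT mice. The groups did not overlap, and the log2 fold change was -0.98 ± 0.22 (adjusted p = 0.0112), just within the fold limit of 1. It passed that limit with a pseudocount of 0.1 (-1.02), with voom (-1.03), with median ratio scaling (-1.22, adjusted p = 0.00518) and without Gm31629-/- mouse 2 (-1.13) or mouse 3 (-1.02) or WT mouse 1 (-1.03) or mouse 2 (-1.04). It came to -0.30 (adjusted p = 0.371) with libraries scaled to epithelial markers, and the adjusted p was 0.0516 without WT mouse 3. Ephb6, whose kinase domain has no catalytic activity, rose from 0.201, 0.177 and 0.113 FPKM in WT mice to 1.44, 3.75 and 4.11 FPKM in Gm31629-/- mice. This was a 19.0-fold difference in means, with a log2 fold change of 1.75 ± 0.29 (adjusted p = 0.00359), or 0.17 (adjusted p = 0.572) with libraries scaled to fibroblast markers. Ephb6 made up 8.29% to 15.5% of the summed EphB FPKM in Gm31629-/- mice and 0.21% to 0.466% in WT mice. Ephb4 remained the most abundant receptor of the class in both genotypes, at 53.2% to 58.4% and 60.9% to 66.5% of the sum. Ephb1 was below the expression filter, with 6, 21 and 4 fragments in Gm31629-/- mice and 0 in each WT library, where a count of 0 allows up to 3 fragments. Summed over the class, EphB receptors reached 17.4 to 32.9 FPKM in Gm31629-/- mice and 38.6 to 53.6 in WT mice.

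Efnb1 and Efnb2, the ligands on the facing cells, were well expressed in all mice. Efnb1 (chromosome X, 99136130 to 99148991, plus strand) was 54.9, 39.3 and 61.4 FPKM in Gm31629-/- mice and 72.4, 86.5 and 78.3 FPKM in WT mice. Every Gm31629-/- mouse lay below every WT mouse. The log2 fold change of Efnb1 was -0.62 ± 0.19 (adjusted p = 0.036), within the fold limit, and it turned to 0.08 when libraries were scaled to epithelial markers. Efnb1 lost the adjusted p of 0.05 without Gm31629-/- mouse 2 or any single WT mouse (0.0534 to 0.108). Efnb2 (chromosome 8, 8617434 to 8661242, minus strand) was 29.3, 19.2 and 23.4 FPKM in Gm31629-/- mice and 20.2, 25.0 and 18.7 FPKM in WT mice. The Efnb2 groups overlapped, at a log2 fold change of 0.15 ± 0.20 (adjusted p = 0.559) that became -0.10 under median ratio scaling and -0.000879 without Gm31629-/- mouse 1. With libraries scaled to epithelial markers it was 0.83 (adjusted p = 0.00641). Efnb3 was below the filter, at a mean of 0.336 FPKM in Gm31629-/- and 0.159 FPKM in WT mice.

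Among the A-type receptors, Epha1 fell and the others tested did not pass. Epha1 (chromosome 6, 42358487 to 42373268, minus strand), an EphA receptor found in epithelia, was 7.61, 3.81 and 7.50 FPKM in Gm31629-/- mice and 14.7, 20.3 and 16.1 FPKM in WT mice. The groups did not overlap and the mean was 2.70-fold lower, at a log2 fold change of -1.34 ± 0.26 (adjusted p = 0.00652). With libraries scaled to epithelial markers it was -0.70 (adjusted p = 0.0354), within the fold limit. Epha2, a receptor of epithelial cells, varied more between Gm31629-/- mice than between genotypes, at 11.3, 55.4 and 18.4 FPKM beside 13.4, 19.1 and 16.6 FPKM in WT mice. Its log2 fold change was 0.47 ± 0.51 (adjusted p = 0.482), and it turned to -0.15 without Gm31629-/- mouse 2. In that mouse Epha2 took 89.1% and Epha1 6.12% of the summed EphA FPKM, while in WT mice the shares were 46.5% to 49.6% and 48.2% to 50.9%. Epha4 had a log2 fold change of -0.04 (adjusted p = 0.899). The remaining 6 A-type receptors were below the filter. Epha7 had 222, 100 and 56 fragments in Gm31629-/- mice and 6, 3 and 2 in WT mice, and Epha5 had 44, 62 and 16 beside 0, 1 and 2. Epha3, Epha6, Epha8 and Epha10 had no fragment in any WT library. With each WT library set at the floor of 3 fragments, the mean of Epha8 (58, 34 and 6 fragments) was at least 10.9-fold higher in Gm31629-/- mice. That of Epha3 (17, 49 and 18) was at least 9.39-fold higher. These are ratios of group means, and Epha8 in Gm31629-/- mouse 3 was near the floor.

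Of the 4 A-type ephrins tested, Efna5 rose past the fold limit and none fell past it. Efna5, a ligand of several EphA receptors, had 240, 415 and 85 fragments in Gm31629-/- mice, or 3.23, 5.58 and 1.15 FPKM. WT libraries held 3, 4 and 2 fragments, and the groups did not overlap. The log2 fold change was 1.91 ± 0.38 on the log2(FPKM + 1) scale (adjusted p = 0.00688). With libraries scaled to fibroblast markers it was 0.71 (adjusted p = 0.0107), within the fold limit. Efna4 went the other way, from 2.23, 2.12 and 3.69 FPKM in WT mice to 0.748, 0.644 and 1.33 FPKM in Gm31629-/- mice, at a log2 fold change of -0.94 (adjusted p = 0.0153), within the fold limit. It passed that limit without Gm31629-/- mouse 3 (-1.09), WT mouse 1 (-1.02) or WT mouse 2 (-1.05). Efna1, the most abundant A-type ligand, was 108, 46.4 and 74.4 FPKM in Gm31629-/- mice and 61.2, 77.7 and 61.9 FPKM in WT mice. Its groups overlapped, and the log2 fold change of 0.11 (adjusted p = 0.776) turned to -0.14 under median ratio scaling and to -0.18 without Gm31629-/- mouse 1. With libraries scaled to epithelial markers it was 0.82 (adjusted p = 0.0259). Efna1, Efna3 and Efna4 lie in 1 cluster on chromosome 3, with 32.8 kb between Efna1 and Efna3 and 10.4 kb between Efna3 and Efna4. Efna3 was 8.02 FPKM in Gm31629-/- mouse 1 and 0.623 to 2.46 FPKM in the other 5 mice, so the same mouse was highest for Efna1 and for Efna3, while its Efna4 lay below every WT mouse.

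Class 3 semaphorins are secreted and most bind neuropilins. Of the 7, 5 were tested; Sema3f and Sema3g rose past the fold limit. Sema3f, a ligand of Nrp2, was 6.25, 18.2 and 15.9 FPKM in Gm31629-/- mice and 1.06, 1.97 and 1.52 FPKM in WT mice. The mean of Sema3f was 8.90-fold higher, at a log2 fold change of 2.42 ± 0.37 (adjusted p = 0.00273), which turned to -0.51 (adjusted p = 0.277) with libraries scaled to fibroblast markers. Sema3g, known from arterial endothelium, was 1.98, 3.37 and 2.40 FPKM in Gm31629-/- mice beside 0.0953, 0.22 and 0.117 FPKM in WT mice. That was a 17.9-fold difference in means, at a log2 fold change of 1.63 ± 0.19 (adjusted p = 0.000927), or 0.21 (adjusted p = 0.49) with libraries scaled to fibroblast markers. Sema3b, a secreted form studied as a tumour suppressor, was the most abundant of the class in WT colon and was lower in Gm31629-/- mice. It stood at 14.5, 9.49 and 14.2 FPKM in Gm31629-/- mice and at 23.8, 25.5 and 25.7 FPKM in WT mice. The groups did not overlap, at a log2 fold change of -0.94 ± 0.18 (adjusted p = 0.00665) that became -0.27 (adjusted p = 0.238) with libraries scaled to epithelial markers. Sema3b passed the fold limit with median ratio scaling (-1.19, adjusted p = 0.00365), without Gm31629-/- mouse 1 (-1.04, adjusted p = 0.00774) and without Gm31629-/- mouse 3 (-1.03).

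The makeup of the class differed between genotypes. Class 3 semaphorins summed to 37.7 to 41.8 FPKM in Gm31629-/- mice and to 32.3 to 35.3 FPKM in WT mice. Sema3b supplied 38.3%, 22.7% and 34.9% of that sum in Gm31629-/- mice, compared with 73.5%, 72.2% and 78.4% in the WT group. Sema3f supplied 16.6%, 43.7% and 39.0% in Gm31629-/- mice, compared with 3.28%, 5.57% and 4.63% in the WT group. The groups did not overlap for either share. Sema3b and Sema3f are neighbours on the minus strand of chromosome 9, 72.3 kb apart with 5 listed genes between them. Sema3a, the founding member of the class and a ligand of Nrp1, had a mean of 1.05 FPKM in Gm31629-/- and 0.0237 FPKM in WT mice, at a log2 fold change of 0.97 (adjusted p = 0.00789), or 1.15 without Gm31629-/- mouse 3. Sema3c, at a log2 fold change of 0.43, did not pass (adjusted p = 0.152). Sema3d and Sema3e were below the filter.

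**Figure D3:**
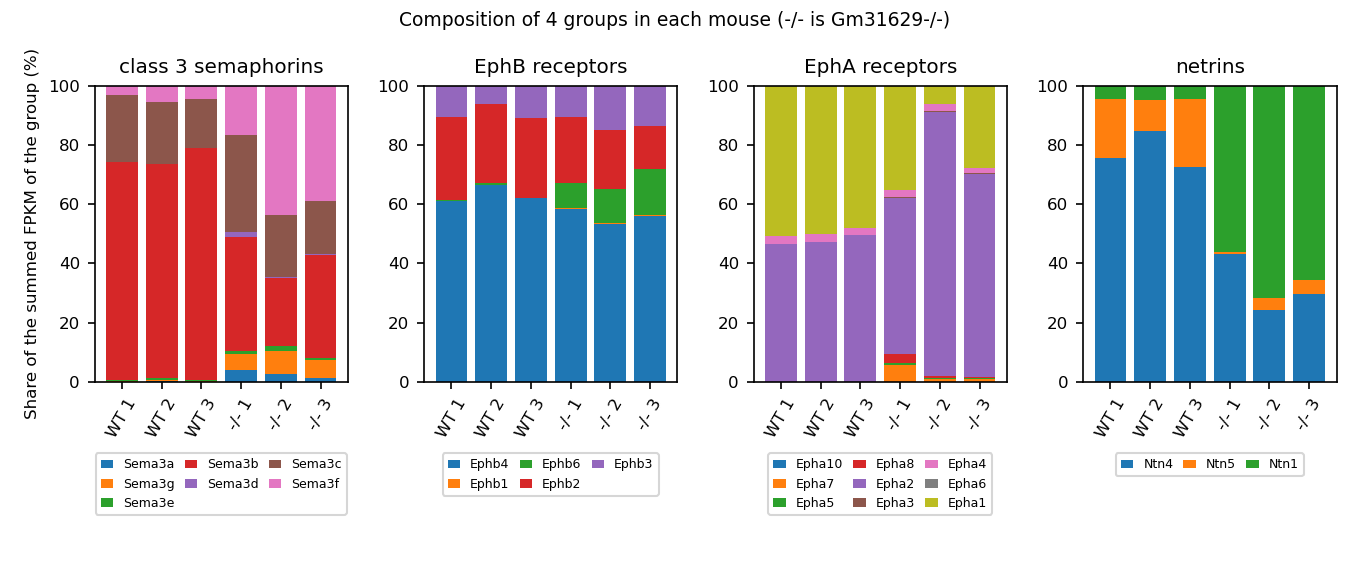
Share (percent of summed FPKM, stacked to 100) that each gene takes of its class in each of the 6 mice, for class 3 semaphorins, EphB receptors, EphA receptors and netrins. Sema3b takes 22.7% to 38.3% of its class in Gm31629-/- mice against 72.2% to 78.4% in the WT group, and Ntn1 takes 56.1% to 71.7% of the netrins against 4.6% to 4.77%.

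Neuropilins and plexins are the receptors that semaphorins share. Nrp1, the receptor of Sema3a and of VEGF, was 1.74, 2.49 and 1.91 FPKM in Gm31629-/- mice and 0.586, 0.641 and 0.446 FPKM in WT mice. The groups did not overlap, at a log2 fold change of 0.96 ± 0.16 (adjusted p = 0.00397), just within the fold limit; it was 1.03 without Gm31629-/- mouse 1 and -0.92 under fibroblast scaling. Nrp2 was 7.82, 11.7 and 5.40 FPKM beside 5.16, 5.25 and 6.32 FPKM in WT mice, with overlapping groups (log2 fold change 0.45 ± 0.26, adjusted p = 0.194, or 0.69 and 0.0499 without Gm31629-/- mouse 3). Under epithelial scaling the log2 fold change of Nrp2 was 1.07 (adjusted p = 0.0202). Plxnd1, a plexin of blood vessels and leukocytes, was 3.40, 13.8 and 10.3 FPKM in Gm31629-/- mice and 0.733, 1.27 and 0.809 FPKM in WT mice. The mean was 9.81-fold higher, at a log2 fold change of 2.23 ± 0.43 (adjusted p = 0.00633), which turned to -0.41 with libraries scaled to fibroblast markers. Plxnb2, an epithelial plexin and the most abundant of all 68 genes, was 91.5, 102 and 125 FPKM in Gm31629-/- mice and 127, 147 and 151 FPKM in WT mice. Its groups did not overlap, but the log2 fold change of -0.42 ± 0.17 missed the threshold (adjusted p = 0.0771) and turned to 0.29 under scaling to epithelial markers. With median ratio scaling it was -0.68 (adjusted p = 0.0253), and without Gm31629-/- mouse 3 the adjusted p was 0.0373. Plxnb2 took 74.9% to 84.2% of the summed plexin FPKM in Gm31629-/- mice and 90.8% to 91.1% in WT mice. Plxna1, Plxna2, Plxna3 and Plxnb1 had log2 fold changes of -0.46, 0.41, 0.50 and 0.69 with adjusted p from 0.0511 to 0.0789.

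The plexins below the filter were all higher in fragments. Plxnc1, the receptor of Sema7a, had 110, 151 and 111 fragments in Gm31629-/- mice and 6, 7 and 10 in WT mice, and Plxnb3 had 38, 117 and 37 beside 1 in each WT library. Plxna4 had 131, 194 and 91 fragments beside 6, 8 and 1. The antisense transcript Plxna4os1 lies within Plxna4 and had 8, 17 and 6 fragments beside 0, 0 and 1. The library kit does not mark strand, so reads from any exon stretch that Plxna4 and Plxna4os1 share cannot be told apart. Whether their exons share such a stretch was not checked.

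The semaphorins of classes 4 to 7, which are mostly membrane-bound, include Sema4a and Sema4g, among the 4 most abundant guidance genes in both genotypes. Of 13 such genes 11 were tested, and Sema4c, a ligand of Plxnb2, rose. It was 4.44, 11.5 and 7.05 FPKM in Gm31629-/- mice and 0.765, 0.919 and 0.904 FPKM in WT mice. The mean was 8.87-fold higher, at a log2 fold change of 2.13 ± 0.29 (adjusted p = 0.0018), which turned to -0.46 with libraries scaled to fibroblast markers. Sema4a, a semaphorin with roles in immune cells, was 87.9, 62.2 and 72.7 FPKM in Gm31629-/- mice and 93.5, 108 and 99.4 FPKM in WT mice. Its groups did not overlap, but the log2 fold change of -0.44 ± 0.17 did not pass (adjusted p = 0.0669) and turned to 0.27 under scaling to epithelial markers. With median ratio scaling it was -0.70 (adjusted p = 0.0147), and without Gm31629-/- mouse 1 it was -0.57 (adjusted p = 0.0276). Sema6b, Sema6c and Sema4d, the last a ligand of Plxnb1 made by T cells, were past the adjusted p of 0.05 with log2 fold changes of 0.96, 0.74 and 0.65, which turned to -1.87, -0.35 and -2.38 under fibroblast scaling. Sema6b passed the fold limit without Gm31629-/- mouse 1 (1.13) or mouse 3 (1.02). Sema7a, a lipid-anchored semaphorin that binds integrins, was 53.5 FPKM in Gm31629-/- mouse 2 and 6.05 to 17.7 FPKM in the other 5 mice (adjusted p = 0.666). Sema4g was 78.1, 35.3 and 91.2 FPKM beside 72.5, 111 and 94.4 FPKM, with overlapping groups (adjusted p = 0.269).

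Of the Slit ligands and Robo receptors tested, Slit3, Robo1 and Robo4 rose in Gm31629-/- colon. All 3 Slit genes and Robo1, Robo2 and Robo4 were higher in every Gm31629-/- mouse than in any WT mouse, a pattern that 31.0% of all listed genes showed. Slit3 (chromosome 11, 35121224 to 35708507, plus strand), a Slit of mesenchymal and vascular cells, was 5.98, 8.48 and 5.11 FPKM in Gm31629-/- mice and 0.0178, 0.229 and 0.184 FPKM in WT mice. WT libraries held 2, 25 and 21 Slit3 fragments. The mean was 45.4-fold higher, at a log2 fold change of 2.70 ± 0.21 (adjusted p = 0.000282), or 0.98 (adjusted p = 0.00243) with libraries scaled to fibroblast markers. Slit1 and Slit2 were below the filter, and Slit1 had 68, 82 and 32 fragments in Gm31629-/- mice and 4, 7 and 6 in WT mice. Slit3 took 86.7% to 92.5% of the summed Slit FPKM in Gm31629-/- mice and 15.4% to 64.3% in the WT group.

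Robo4 (chromosome 9, 37401897 to 37415115, plus strand), the Robo of endothelium, was 2.75, 7.13 and 5.88 FPKM in Gm31629-/- mice and 0.153, 0.503 and 0.442 FPKM in WT mice, at a log2 fold change of 2.13 ± 0.30 (adjusted p = 0.00201). Robo1, a widely expressed Slit receptor, was 1.42, 2.78 and 2.23 FPKM beside 0.0572, 0.198 and 0.0633 FPKM, at a log2 fold change of 1.49 ± 0.20 (adjusted p = 0.00168). The means were 14.4-fold and 20.2-fold higher. With libraries scaled to fibroblast markers, the log2 fold changes were 0.11 for Robo4 (adjusted p = 0.767) and 0.25 for Robo1 (adjusted p = 0.386). Robo2 passed the adjusted p (0.00818) at a log2 fold change of 0.70, within the fold limit, which turned to -0.49 under fibroblast scaling. Robo3, whose gene ends 0.6 kb from that of Robo4, was below the filter, with 4, 3 and 3 fragments beside 3, 0 and 1. Markers of endothelium, whose summed level is given above, were higher in the same libraries in which Robo4, Sema3g and Plxnd1 were higher, and 12 of 12 of these markers passed as higher with a median log2 fold change of 2.69. Markers of other cell types passed as higher there too. They did so in 12 of 12 tested for fibroblasts (median 3.07) and 10 of 11 for smooth muscle (4.02). For macrophages it was 11 of 12 (2.38) and for neutrophils 7 of 7 (2.65). The part of any of these cell types in the results for Robo4, Sema3g and Plxnd1 was not tested.

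Netrin-1 gave the highest log2 fold change of the 45 members on the log2(FPKM + 1) scale; with voom on fragments Slit3 (6.00) and Efna5 (5.91) exceeded it (5.70). Ntn1 (chromosome 11, 68209364 to 68400823, minus strand) was 7.64, 9.41 and 5.57 FPKM in Gm31629-/- mice and 0.121, 0.195 and 0.11 FPKM in WT mice. WT libraries held 14, 22 and 13 fragments. The mean was 53.2-fold higher, at a log2 fold change of 2.88 ± 0.20 (adjusted p = 0.000235), and it was 1.06 (adjusted p = 0.0015) with libraries scaled to fibroblast markers. Ntn4, a basement membrane netrin, did not pass (log2 fold change 0.50, adjusted p = 0.221). Ntn1 thus made up 56.1%, 71.7% and 65.6% of the summed netrin FPKM in Gm31629-/- mice and 4.64%, 4.77% and 4.6% in WT mice. Ntn4 held 72.4% to 84.8% of it in WT mice. Unc5b, the netrin receptor with the highest level, was 47.0, 29.6 and 38.7 FPKM in Gm31629-/- mice and 24.2, 31.4 and 32.2 FPKM in WT mice. Its groups overlapped, at a log2 fold change of 0.37 ± 0.21 (adjusted p = 0.186), and Unc5a did not pass either (0.38, adjusted p = 0.0907). Under epithelial scaling Unc5b was at 1.06 (adjusted p = 0.00328) and Unc5a at 0.90 (adjusted p = 0.00754). Unc5c had 59, 86 and 45 fragments in Gm31629-/- mice and none in WT mice. Its mean was at least 21.1-fold higher with WT libraries at the floor of 3 fragments. Unc5d had 33, 12 and 2 fragments and none in WT mice. Its mean was at least 5.23-fold higher, but Gm31629-/- mouse 3 lay below that floor.

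**Figure D4:**
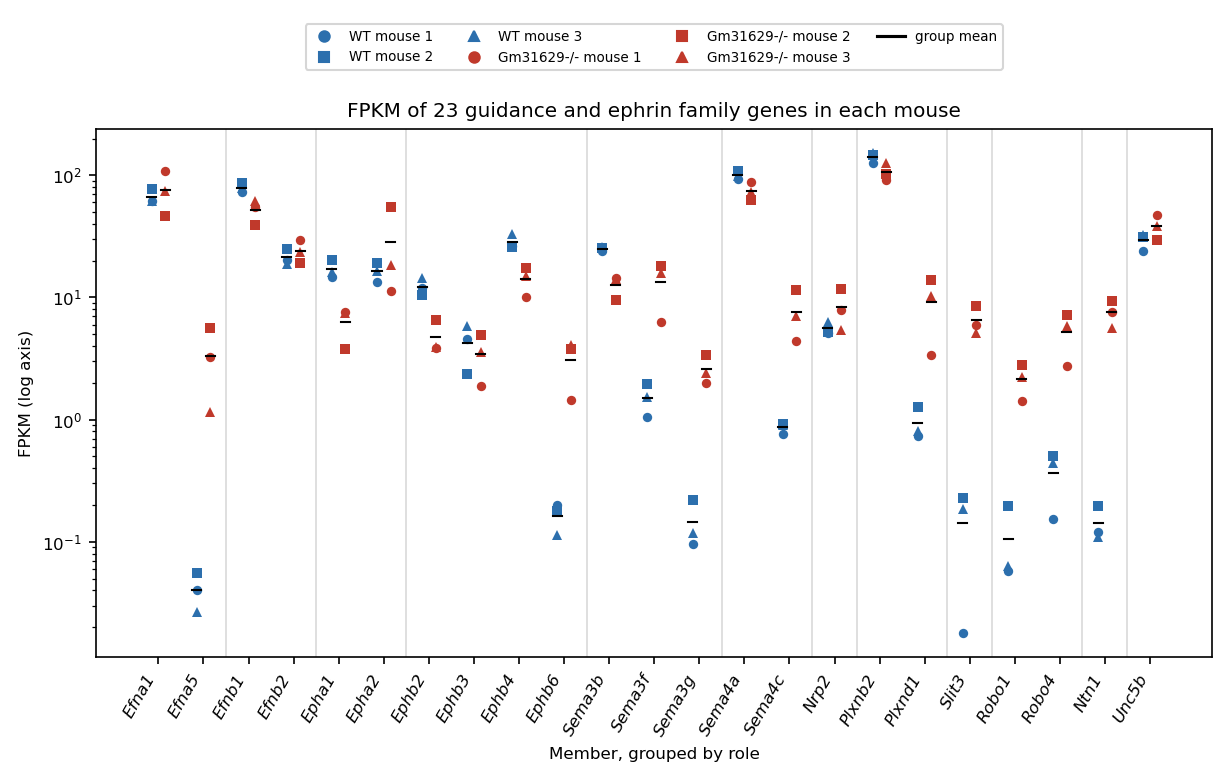
FPKM (log axis) of the guidance and ephrin genes described in full, 1 point per mouse (circle, square and triangle for mouse 1, 2 and 3; blue WT, red Gm31629-/-), with a bar at the group mean. The 10 genes called higher and the 2 called lower do not overlap between genotypes, while Ephb3, Efnb2, Efna1, Epha2, Nrp2 and Unc5b do. The points are FPKM as deposited. Under scaling to fibroblast markers Sema3f, Plxnd1, Sema4c, Nrp2, Unc5b, Efna1, Efnb2 and Epha2 turn lower, and the median log2 fold change of all tested genes is -2.592.

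The 23 members below the expression filter were counted as fragments only. Of these, 19 were higher in every Gm31629-/- mouse than in any WT mouse, Robo3 by less than 1 fragment, and 0 were lower. Of all 27546 listed genes, 8547 were higher and 3473 lower without overlap, and 5322 and 3144 of these were among the 14657 tested. The count of 19 was not tested against other genes below the filter. WT libraries held at most 9 fragments in all for 13 of the 23, and 7 had none: Epha3, Epha6, Epha8, Epha10, Ephb1, Unc5c and Unc5d. Over the 68 listed members, 39 were higher and 9 lower without overlap, where 31.0% and 12.6% of all listed genes were. Libraries of Gm31629-/- mice had 22456 to 23600 genes above 0 and those of WT mice 19938 to 20118.

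Other genes of the guidance pathways came from a list of 74, written with earlier results of these data known. Shares of the list beside those of all genes are therefore no test of these pathways. Of the 74, 62 were tested. Of these, 21 (33.9%) passed as higher and 3 (4.84%) as lower, where 18.4% and 4.64% of all tested genes did, with a median log2 fold change of 0.42 beside 0.15 over all tested genes; 39 were positive and 23 negative. The highest was Cxcl12, a chemokine that guides neurons and leukocytes, at 12.7, 23.0 and 19.0 FPKM in Gm31629-/- mice and 0.661, 1.63 and 0.644 FPKM in WT mice. Its log2 fold change was 3.28 ± 0.28 (adjusted p = 0.00036), and its receptor Cxcr4 followed at 3.16 ± 0.24 (adjusted p = 0.000281). Sdc3, a heparan sulfate proteoglycan of the cell surface, had 2.82 ± 0.28 (adjusted p = 0.000576). The 3 lower genes were L1cam, Farp2 and Erbb2. L1cam, an adhesion molecule of axons, was 4.11, 6.18 and 2.13 FPKM in Gm31629-/- mice and 20.8, 25.5 and 26.9 FPKM in WT mice, at a log2 fold change of -2.38 ± 0.30 (adjusted p = 0.00131). Farp2, a guanine nucleotide exchange factor that acts below semaphorin receptors, had a log2 fold change of -1.71 ± 0.19 (adjusted p = 0.000829), with 1.06 to 2.09 FPKM beside 6.95 to 7.11 FPKM. Erbb2, a receptor tyrosine kinase that associates with plexin-B receptors, had one of -1.14 ± 0.27 (adjusted p = 0.0144). The groups did not overlap for any of these 6 genes.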

How the data were processed

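RNA was taken from distal colon of 3 Gm31629-/- and 3 WT mice, and libraries were made with a TruSeq kit. The submitters' processing notes name HISAT2 2.1.0, HTSeq 0.6.0 and GRCm38; the strand setting of the counting is not given in the sources used here. The authors deposited 1 table of FPKM values for 27546 genes, with a column per mouse, although the methods speak of pooled RNA; replicates are taken as separate mice, and if RNA was pooled, p-values measure only the spread between libraries. Genes were named from GENCODE M21 (27488 matched). Its exon lengths gave the size of 1 fragment: 96.3% to 97.2% of values of up to 20 fragments came within 0.1 of a whole number, and depths of 18006000 to 18795100 fragments followed. Floors and fragment numbers cover counting error only.

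The authors' comparison used DEGseq. Here limma 3.58.1 in R 4.3.3 was fitted to log2(FPKM + 1) of genes with mean FPKM of at least 0.5, with a variance trend and Benjamini-Hochberg adjustment over 14657 genes. The pseudocount of 1 lowers the fold changes of low genes. Single values were compared by exact permutation (scipy 1.17.1). The test was checked on simulated data. Genes given in full were the B-type crypt genes, the called genes with the largest changes in each role, and the most abundant of each role. Members and lists were chosen with earlier results of these data known. Alternatives covered the pseudocount, filter, scaling, variance trend, replicate block, voom on fragments, the call rule and leaving out each mouse.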

Additional observations from a re-analysis of the deposited data

How the results depend on the processing

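With libraries scaled to the same sum, with no variance trend or with no filter, 10 members were higher and 2 lower, as reported. Of all 14657 tested genes, 2745 were higher and 673 lower with the same sum, and 2703 and 678 with no trend. With no filter it was 2537 and 620 of 27546 genes. With a pseudocount of 0.1, 16 members were higher and 4 lower, beside 3700 and 983 of all 14657 tested genes. With voom on fragments it was 17 and 5, beside 3633 and 1002. With no limit on the fold it was 16 and 6, beside 4238 and 2138. With limma's treat against a log2 fold change of 1 it was 3 and 0, beside 795 and 117. Median ratio scaling gave 5 lower, scaling to epithelial markers 20 higher and 0 lower, and scaling to fibroblast markers 1 higher and 30 lower. Over all tested genes, median ratio scaling gave 1217 lower and epithelial scaling 4910 higher and 220 lower. Fibroblast scaling gave 218 higher and 11729 lower over all tested genes. A filter at mean FPKM of 5 left 2 higher, since fewer members were tested. Of all 7242 genes tested with that filter, 956 were higher. Leaving out 1 mouse gave 10 to 12 higher and 2 to 5 lower, beside 2285 to 2892 and 513 to 766 of all tested genes.

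Over the 45 tested members, 3 changed sign under median ratio scaling, 9 under epithelial scaling and 23 under fibroblast scaling. Among the genes described in full, the reversals were these. Under median ratio scaling, log2 fold changes were -0.14 for Efna1 and -0.10 for Efnb2. Under epithelial scaling they were 0.08 for Efnb1, 0.31 for Ephb3, 0.29 for Plxnb2 and 0.27 for Sema4a. Under fibroblast scaling they were -3.48 for Efna1, -3.31 for Efnb2, -3.01 for Epha2, -2.68 for Nrp2, -3.16 for Unc5b, -0.41 for Plxnd1, -0.51 for Sema3f and -0.46 for Sema4c. Without 1 mouse, Efna1 ranged from -0.18 to 0.43, Efnb2 from -0.000879 to 0.29, Ephb3 from -0.53 to 0.05 and Epha2 from -0.15 to 0.94. The causes were not tested. In the marker scalings the libraries are set to lists that themselves differ between genotypes. The median log2 fold change of all tested genes was 0.69 under epithelial scaling and -2.592 under fibroblast scaling.

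Relative to epithelial markers, Ephb2 was at -0.51, or -0.80 to -0.36 without 1 mouse, and at -0.96 relative to crypt genes. Ephb3 was at 0.47, or 0.15 to 0.78. Replicate numbers are shared between genotypes. The deviations of each gene from its group mean correlated at 0.036, -0.108 and 0.014 between same-numbered mice. The values themselves, on the log2(FPKM + 1) scale, correlated at 0.841, 0.797 and 0.827. In the deviations, not every mouse correlated best with its own number, so the number was not taken as a pairing. With the number as a replicate block, 10 members were higher and 2 lower, beside 2709 and 648 of all tested genes. Efnb1 had an adjusted p of 0.0725 in that fit. At these depths a gene with no fragment may still hold up to 3, and 3 mice against 3 cannot give an exact p below 0.1.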

Other observations

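Single mice stood apart within their group for several guidance genes, and these values were picked after they were seen. WT mouse 2 was the lowest WT mouse for Ephb3 (2.38 FPKM, beside 4.58 and 5.80). It was also the lowest WT mouse for 13 of the 17 crypt genes and Wnt targets, but not for Prom1, where it was highest (173 FPKM, beside 110 and 105), nor for Slc12a2, Nkd1 or Sp5. Among the 13 were Ascl2 (0.171, beside 3.9 and 6.06), Axin2 (1.53, beside 2.93 and 4.77), Cdca7 (7.82, beside 18.5 and 24.9) and Lgr5 (0.0866, beside 0.406 and 0.534). Ephb2 was likewise lowest there, but by less, at 10.4 FPKM beside 12.0 and 14.4. In Gm31629-/- mice, Ascl2 was 0.134 to 0.201 and Lgr5 0.0265 to 0.0477 FPKM, below every WT mouse for Lgr5, while the groups overlapped for Ascl2 through WT mouse 2.

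Gm31629-/- mouse 2 was the highest of all 6 mice for Epha2 (55.4 FPKM) and Sema7a (53.5 FPKM) and the lowest for Epha1 (3.81), Efna1 (46.4), Sema4g (35.3), Sema4a (62.2), Sema3b (9.49) and Efnb1 (39.3). Ephb2, in contrast, was highest of the Gm31629-/- mice in that animal (6.55 FPKM).

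Ephb2 has a neighbour of its own family 93.4 kb away on chromosome 4, Epha8, with 3 listed genes between them. Ephb2 was lower in every Gm31629-/- mouse, while Epha8 had 58, 34 and 6 fragments there and none in WT mice.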
